A study of Mus musculus with 12 samples.

Results

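The 10 genes described here encode checkpoint and CD28 family receptors of T cells: Pdcd1, Ctla4, Icos, Cd28, Btla, Lag3, Tigit, Havcr2, Cd160 and Cd200. They were taken by symbol, and each matched exactly 1 of the 55401 Ensembl genes in the count table. RNA sequencing had been done on 12 libraries of mouse cells labelled Th17, an IL-17-producing helper lineage, which were wild type and grown from naive T cells of lymph nodes. The cells had no inhibitor (None), Kira8, which blocks the endoplasmic reticulum stress sensor IRE1alpha, Stattic, which blocks the transcription factor STAT3, or Kira8 and Stattic together, and treatment lasted 4 h. There were 3 libraries per group. Mouse strain, age, inhibitor doses, the polarising cytokines, any solvent in None and whether replicates came from separate mice or cultures are not stated in the labels. The p-values measure only how far these libraries spread, and that spread may be technical.

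A T cell needs a second signal beside its antigen receptor, and the receptors described here raise or lower it. Cd28 and Icos encode costimulators, whereas Ctla4 encodes an inhibitory receptor that competes with CD28 for the ligands CD80 and CD86. Pdcd1 (PD-1), Btla, Lag3, Tigit and Havcr2 (TIM-3) encode inhibitory receptors that activated T cells display, and several of them recruit phosphatases that damp antigen receptor signalling. Cd160 encodes a membrane-anchored receptor that shares the ligand HVEM with BTLA. Cd200 encodes the ligand of an inhibitory receptor on myeloid cells.

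Libraries held 51669791 to 85890966 counts, apart from Kira8 replicate 2 with 19813462 and Stattic replicate 2 with 9275672. These 2 stood apart. Mitochondrial transcripts took 61.55% and 10.66% of their counts, against 3.38% to 5.22% in the other 10, and the repeat-derived gene model Gm10800 took 2.91% and 19.1%. The 10 receptor genes together held 0.286% to 0.356% of a library's counts, but 0.0119% for Kira8 replicate 2 and 0.0711% for Stattic replicate 2. Values below come from the 10 other libraries, with 3 for None, 2 for Kira8, 2 for Stattic and 3 for Kira8+Stattic, unless all 12 are named. In the 10 libraries the receptors had between 83 and 107456 counts per gene and library. Markers of the labelled cell type were present in None: the mean level was 383 CPM (counts scaled to a common library total) for Cd4 and 718 CPM for Il17a. The summed level of 8 Th17 markers ranged from 708 to 2790 CPM in None and from 689 to 860 CPM over the 7 libraries with an inhibitor. That sum joins opposite changes. Il17a had means of 152, 150 and 162 CPM with Kira8, Stattic and both. Rora had 69.9 CPM in None and 221, 312 and 345 CPM with the inhibitors. By the test described below, 2 of the 8 fell and 1 rose with Kira8, 4 and 2 with Stattic, and 5 and 2 with both. Of all genes 19.3%, 39% and 40.8% were called.

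Levels of different genes were compared per kilobase of merged exon sequence. In None, Ctla4 was the most abundant of the 10 on that scale, at 263 ± 31.4 CPM per kb (SD, n = 3), and its range did not overlap that of the next gene. Lag3 (140 ± 16.0), Cd28 (119 ± 19.1), Icos (118 ± 10.9), Btla (110 ± 30.9) and Cd200 (96.4 ± 38.0) followed, and each of these overlapped its neighbour in the order. Pdcd1 (55.2 ± 9.82) and Tigit (39.4 ± 5.58) were lower without overlap, and Cd160 (6.21 ± 2.29) and Havcr2 (2.52 ± 1.30) were lowest. With Kira8 the order of Pdcd1 (15.6 ± 1.42 CPM per kb, n = 2) and Tigit (20.7 ± 6.43) was exchanged, although their ranges overlapped. With Stattic, Btla (40.2 ± 2.93) and Cd200 (30.1 ± 0.758) lay below Tigit (60.8 ± 0.186) and Pdcd1 (49.1 ± 4.57), with no overlap between neighbours. With both inhibitors Btla, Pdcd1, Tigit and Cd200 ran from 46.5 ± 4.28 to 31.2 ± 3.45, and each overlapped its neighbour.

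**Figure D1:**
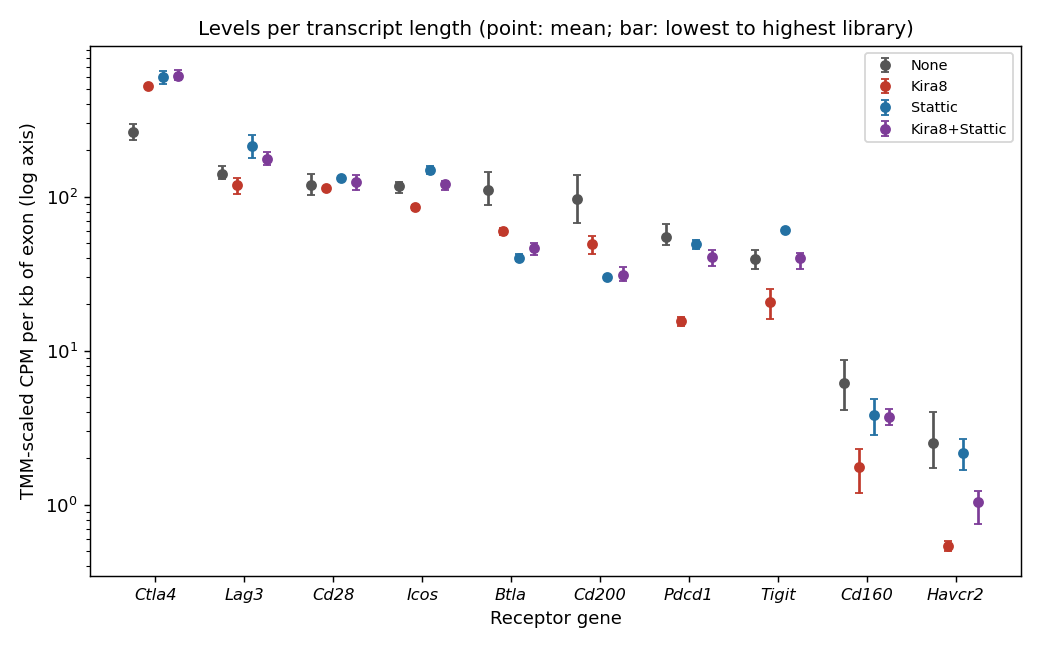
Mean TMM-scaled CPM per kb of merged exon on a log axis for each receptor gene, with bars from the lowest to the highest library of each group (n = 3, 2, 2 and 3). Ctla4 is highest in every group, from 263 in None to 612 with both inhibitors, and Havcr2 is lowest, from 2.52 in None to 0.537 with Kira8.

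Levels in CPM, above and below, are TMM-scaled unless a library's own total is named, a scaling that evens out differences in library composition. Changes are log2 values ± standard error from edgeR's quasi-likelihood test on the whole table. Adjusted p-values (Benjamini-Hochberg) run over the 21239 genes tested, a gene is called when its value is under 0.05, and all 10 receptors passed the filter on low counts. With Kira8 7 of the 10 receptors were called against None, 1 higher and 6 lower, where 19.3% of all genes were called, 9.7% higher and 9.59% lower. Their median change was -0.91, against 0 over all genes tested. With Stattic 5 of 10 were called, 3 higher and 2 lower, against 39% of all genes, 20.1% higher and 18.9% lower, and the medians were -0.01 and 0.08. With both inhibitors 5 of 10 were called, 1 higher and 4 lower, against 40.8% of all genes, 20.8% higher and 20% lower, with medians of -0.21 and 0.09. The Stattic and combination counts were thus near the share of all genes. The groups did not overlap for 8 receptors with Kira8, 6 with Stattic and 6 with both, against 47.8%, 58.3% and 54.1% of all genes. The comparisons with None share the same 3 None libraries. Leaving out Kira8 replicate 1 took the Kira8 count to 4, and leaving out replicate 3 took it to 3. The Stattic count was 3 without None replicate 3 or Stattic replicate 1, and the combination count 3 without None replicate 2.

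In all 12 libraries edgeR called 0 of the 10 receptors in these 3 comparisons and in the other comparisons described below, where at most 0.31% of 20993 genes were called. That share was 0% with Kira8, 0.31% with Stattic (0.105% higher and 0.205% lower), 0.272% with both (0.133% and 0.138%) and 0% in the rest. An unadjusted p under 0.05 was reached there by 2 receptors with Kira8, 2 with Stattic and 0 with both. On the same 12 libraries limma voom with library quality weights called 8, 4 and 5 receptors, and DESeq2 called 2, 0 and 0.

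**Figure D2:**
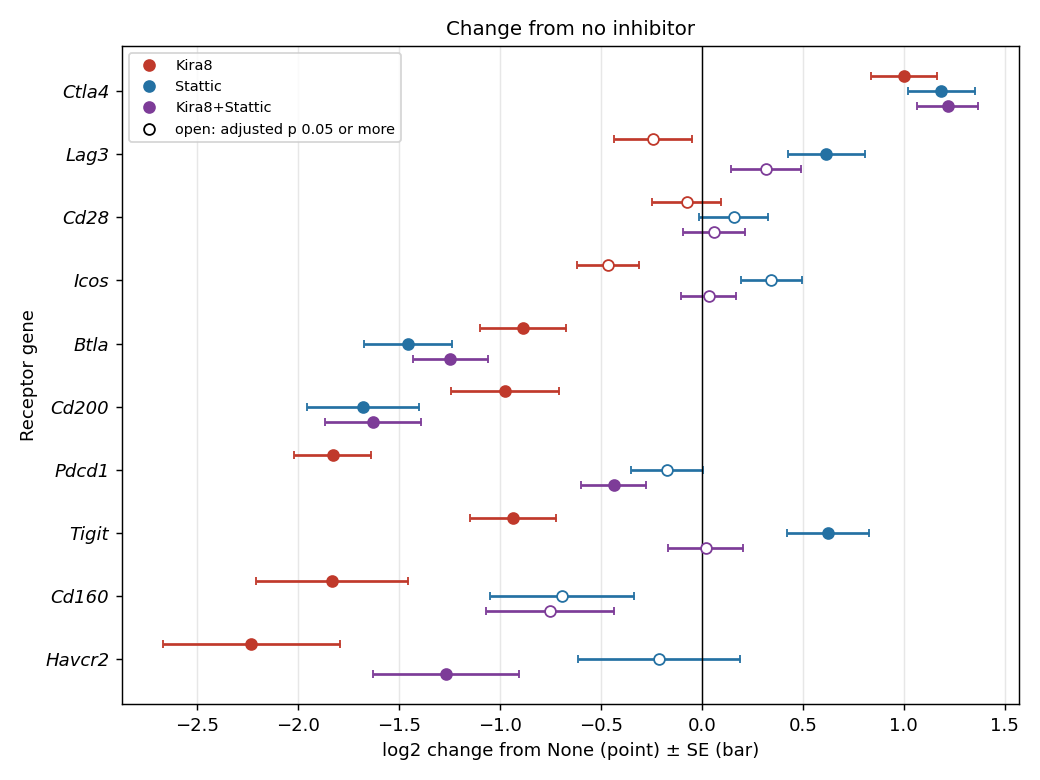
log2 change from None (point) ± standard error (bar) for each receptor with Kira8, Stattic or both, from edgeR on 10 libraries, with filled points for genes called. Ctla4 rose in all 3 comparisons (1.00, 1.19 and 1.22), Btla and Cd200 fell in all 3, and Tigit fell with Kira8 (-0.93) and rose with Stattic (0.62).

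Cd28, Ctla4 and Icos are neighbours on chromosome 1 of mm10, on the plus strand at 60716800 to 60773359, 60887000 to 60915832 and 60977927 to 61000320. Gaps of 113641 and 62095 bases separate their gene models. The 3 genes nevertheless differed in how they moved. Ctla4 was measured at 542, 688 and 611 CPM in None, 1228 and 1230 with Kira8, 1526 and 1267 with Stattic, and 1338, 1553 and 1388 with both. Every library with an inhibitor lay above every None library. Ctla4 rose 2.00-fold with Kira8 (1.00 ± 0.16, adjusted p = 0.00143), 2.28-fold with Stattic (1.19 ± 0.16, adjusted p = 0.000159) and 2.33-fold with both (1.22 ± 0.15, adjusted p = 5.68e-05), and the call held without any single library. With all 12 libraries the changes were 0.50 ± 0.90, 0.63 ± 0.90 and 1.20 ± 0.91, with adjusted p of 0.885, 0.722 and 0.705.

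Cd28, the founding costimulator of the family, was measured at 631, 701 and 859 CPM in None, 695 and 693 with Kira8, 810 and 821 with Stattic, and 678, 769 and 843 with both. All libraries with an inhibitor lay within the None range, and Cd28 was not called in any of the 7 comparisons. Its 95% intervals against None were -0.45 to 0.30 with Kira8, -0.21 to 0.53 with Stattic and -0.27 to 0.40 with both. Icos, whose product sustains effector and follicular helper responses, was measured at 361, 429 and 423 CPM in None and 305 and 282 with Kira8. It was 543 and 485 CPM with Stattic and 380, 436 and 428 with both. The Kira8 libraries were thus below and the Stattic libraries above all None libraries, without a call (Kira8 -0.46 ± 0.16, adjusted p = 0.0553, and Stattic 0.34 ± 0.15, adjusted p = 0.0914). The Kira8 difference of Icos was called by DESeq2 (adjusted p = 0.00411), by limma voom (0.0382), without None replicate 1 (0.0231) and without Kira8+Stattic replicate 1 (0.0434).

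Ctla4 and Icos are also abundant in regulatory T cells, so 6 markers of those cells were read beside them. Their summed level was 2030 to 2680 CPM in None, 1910 to 2300 with Kira8, 448 to 504 with Stattic and 384 to 484 with both. Il2ra alone had means of 2120, 1910, 370 and 329 CPM in the same order, so the sum mostly follows that gene. With Stattic 5 of the 6 fell, Foxp3, the lineage factor of those cells, from a mean of 48.2 to 13.9 CPM (-1.79 ± 0.28), while Ctla4 rose. With Kira8 1 of the 6 fell and Foxp3 was not called (-0.21 ± 0.26). The shares of all genes called lower were 18.9% with Stattic and 9.59% with Kira8. The part of regulatory T cells in the Ctla4 and Icos results was not tested. In these bulk libraries fewer cells of a type and less RNA per cell cannot be told apart. The start of Ctla4 in RefSeq lies 22025 bases inside the longest gene model, and the pseudogene Rpl18-ps1 within the locus had 69 to 139 counts per library.

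Upstream sequence was examined for 4 motifs, since members moved in different directions: TTCNNNGAA (STAT), TGANTCA (AP-1), GGAAA (NFAT) and GAANNTTC (heat shock element), on both strands. Of the 10 genes 7 matched the RefSeq promoter table (build GRCm38.p6, the assembly of mm10), and Icos, Cd28 and Lag3 did not. The windows are the 250 bases before the annotated start, for 8 starts in all. Shown are Ctla4, which rose with each inhibitor (chr1:60908775-60909024, plus strand), Pdcd1, which fell with Kira8 (chr1:94052554-94052803, minus strand), and Btla (chr16:45224087-45224336, plus strand) and Cd200 (chr16:45409054-45409303, minus strand), which fell together. They are written 5′ to 3′, and capitals mark motif matches.
Ctla4: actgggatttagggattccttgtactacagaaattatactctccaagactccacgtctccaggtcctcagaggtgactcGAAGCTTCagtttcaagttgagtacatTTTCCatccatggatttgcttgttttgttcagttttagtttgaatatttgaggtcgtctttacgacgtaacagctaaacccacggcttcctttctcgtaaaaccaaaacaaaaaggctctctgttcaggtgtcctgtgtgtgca
Pdcd1: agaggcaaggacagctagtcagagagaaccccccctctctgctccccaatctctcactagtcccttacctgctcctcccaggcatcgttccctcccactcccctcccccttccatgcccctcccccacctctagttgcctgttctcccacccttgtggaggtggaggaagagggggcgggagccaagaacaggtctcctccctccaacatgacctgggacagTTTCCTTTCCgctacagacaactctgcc
Btla: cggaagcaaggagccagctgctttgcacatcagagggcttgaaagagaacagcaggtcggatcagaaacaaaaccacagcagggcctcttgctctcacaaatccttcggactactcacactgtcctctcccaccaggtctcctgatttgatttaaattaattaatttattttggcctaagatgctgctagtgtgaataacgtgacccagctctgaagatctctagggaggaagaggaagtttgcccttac
Cd200: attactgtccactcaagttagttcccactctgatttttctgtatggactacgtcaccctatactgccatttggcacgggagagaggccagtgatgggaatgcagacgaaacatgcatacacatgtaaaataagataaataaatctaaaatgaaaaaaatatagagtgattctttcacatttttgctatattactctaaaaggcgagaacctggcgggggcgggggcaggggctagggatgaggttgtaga
Ctla4 held 1 heat shock element match, 171 bases before the start, and 1 NFAT match, 144 bases before it. Pdcd1 held 2 NFAT matches, while Btla and Cd200 held none of the 4 motifs. Over the 8 windows STAT matched in 1 (Cd160), AP-1 in 1 (Havcr2), NFAT in 4 and the heat shock element in 2 (Ctla4 and Havcr2), and no match overlapped one of another motif. Among 32851 windows of the same length in the table, 7.02% held the STAT motif, 6.75% AP-1, 55.6% NFAT and 6.69% the heat shock element. These matches are a description of the letters in the windows.

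Pdcd1 (ENSMUSG00000026285, chromosome 1, 94038305 to 94052553, minus strand) encodes PD-1, the receptor of PD-L1 and PD-L2. Its levels were 93.2, 128 and 98.1 CPM in None, 32.0 and 28.1 with Kira8, 101 and 88.4 with Stattic, and 68.4, 87.0 and 80.8 with both. Both Kira8 libraries were below each of the other 8 libraries, and of the Stattic libraries 1 lay within the None range and 1 below it. Pdcd1 fell 3.55-fold with Kira8 (-1.83 ± 0.19, adjusted p = 0.000116), and this call held without any single library (-1.92 to -1.67). With Stattic the difference was -0.17 ± 0.18 (95% interval -0.56 to 0.22, adjusted p = 0.479). With both inhibitors it was 1.35-fold lower than None (-0.44 ± 0.16, adjusted p = 0.0448). That last call held when None replicate 1 was left out (0.0212) and ended when any of the other 9 libraries was (0.0514 to 0.172) or with RLE size factors (0.0534), and without None replicate 2 the change was -0.28. Over the 12 libraries the Kira8 change was -1.92 ± 0.50 (adjusted p = 0.373 in edgeR), and DESeq2 called it.

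Tigit (chromosome 16, 43648867 to 43664146, minus strand) encodes an inhibitory receptor of the poliovirus receptor PVR and nectins, and it moved in opposite directions with the 2 inhibitors. Its levels were 31.1, 41.4 and 36.2 CPM in None, 23.2 and 14.8 with Kira8, 56.0 and 55.7 with Stattic, and 31.1, 39.4 and 39.6 with both. The Kira8 libraries were the lowest and the Stattic libraries the highest, and the combination matched the None range. Tigit fell 1.91-fold with Kira8 (-0.93 ± 0.21, adjusted p = 0.00943) and rose 1.54-fold with Stattic (0.62 ± 0.20, adjusted p = 0.0293), and with both the difference was 0.02 ± 0.19 (95% interval -0.38 to 0.42). The Kira8 call ended without Kira8 replicate 3 (0.152). The Stattic call ended without None replicate 1 (0.0687), None replicate 3 (0.0622), Stattic replicate 1 (0.103) or Stattic replicate 3 (0.109), and with scaling by library size alone (0.0762). When all 12 were fitted, the changes were -1.51 ± 1.31 and 0.04 ± 1.29, and Kira8 replicate 2 had 0 Tigit counts.

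Lag3 (chromosome 6, 124904361 to 124911705, minus strand) encodes an inhibitory receptor of MHC class II. Its levels were 335, 280 and 274 CPM in None, 280 and 221 with Kira8, 534 and 374 with Stattic, and 354, 412 and 342 with both. All 5 libraries with Stattic lay above the None libraries, while Kira8 overlapped None. Lag3 rose 1.53-fold with Stattic (0.62 ± 0.19, adjusted p = 0.0226) and was not called with Kira8 (-0.24 ± 0.19, 95% interval -0.66 to 0.18) or with both (0.32 ± 0.17, adjusted p = 0.163). The Stattic call ended without None replicate 2 (0.0551), None replicate 3 (0.0645) or Stattic replicate 1 (0.279, change 0.33), and with library size alone (0.0865). In all 12 libraries the Stattic change was 0.74 ± 0.46 (adjusted p = 0.375).

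Havcr2 (chromosome 11, 46454935 to 46481255, plus strand) encodes TIM-3, an inhibitory receptor of Th1 and exhausted T cells, and had the lowest level per kb of the 10. It was measured at 4.95, 10.9 and 4.69 CPM in None, 1.35 and 1.57 with Kira8, 4.55 and 7.29 with Stattic, and 2.03, 3.36 and 3.15 with both. The Kira8 and combination libraries lay below None and the Stattic libraries overlapped it. Havcr2 fell 4.69-fold with Kira8 (-2.23 ± 0.44, adjusted p = 0.00417) and 2.40-fold with both (-1.27 ± 0.36, adjusted p = 0.0144), and with Stattic it differed by -0.21 ± 0.40 (95% interval -1.08 to 0.66). The Kira8 call ended without Kira8 replicate 1 (0.0536) and the combination call without None replicate 2 (0.0841, change -0.76). Without None replicate 2 the Stattic difference was 0.30. With all 12 libraries the Kira8 change was -2.76 ± 1.14 (adjusted p = 0.374 in edgeR), and DESeq2 called it.

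Btla (chromosome 16, 45224315 to 45257670, plus strand) and Cd200 (chromosome 16, 45382135 to 45409053, minus strand) lie 124465 bases apart and fell with each inhibitor. Btla was measured at 302, 495 and 326 CPM in None, 192 and 213 with Kira8, 144 and 130 with Stattic, and 162, 170 and 142 with both. Cd200 was measured at 272, 464 and 225 CPM in None, 142 and 184 with Kira8, 98.4 and 102 with Stattic, and 94.3, 101 and 116 with both. In both genes None replicate 2 was the highest library, and every library with an inhibitor was below every None library. Btla fell 1.85-fold with Kira8 (-0.88 ± 0.21, adjusted p = 0.0117), 2.74-fold with Stattic (-1.46 ± 0.22, adjusted p = 0.000272) and 2.37-fold with both (-1.24 ± 0.19, adjusted p = 0.000239). Cd200 fell 1.96-fold with Kira8 (-0.97 ± 0.27, adjusted p = 0.0236), 3.20-fold with Stattic (-1.68 ± 0.28, adjusted p = 0.000541) and 3.09-fold with both (-1.63 ± 0.24, adjusted p = 0.000197). The Stattic and combination calls of both genes held without any single library. The Kira8 calls ended without Kira8 replicate 1 (0.119 for Btla and 0.206 for Cd200) or Kira8 replicate 3 (0.0776 and 0.0749), and without None replicate 2 the Kira8 change of Cd200 was -0.61. Over the 12 libraries the Stattic changes were -2.01 ± 0.80 for Btla and -2.25 ± 0.97 for Cd200 (adjusted p = 0.219 and 0.24).

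Btla and Cd200 are also expressed by B cells, and B cell markers moved with them. The summed level of 10 B cell markers was 159 to 174 CPM in None, 56.9 to 64.5 with Kira8, 21.5 to 37.3 with Stattic and 25.0 to 51.9 with both. Of the 10, 6 fell with Kira8, 9 with Stattic and 8 with both, and none was at 0 in any group. The shares of all genes called lower were 9.59%, 18.9% and 20%. The part of B cells in the Btla and Cd200 results was not tested.

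Cd160 (chromosome 3, 96798763 to 96829351, minus strand) is best known from NK cells and cytotoxic T cells. It was measured at 15.5, 22.9 and 10.9 CPM in None, 6.09 and 3.14 with Kira8, 12.8 and 7.54 with Stattic, and 11.1, 9.53 and 8.69 with both. The Kira8 libraries were below all others, and the other groups overlapped None. Cd160 fell 3.56-fold with Kira8 (-1.83 ± 0.38, adjusted p = 0.00533) and was not called with Stattic (-0.69 ± 0.36, adjusted p = 0.146) or both (-0.75 ± 0.32, adjusted p = 0.0767). The Kira8 call ended without Kira8 replicate 3 (0.0767), and the combination was called without None replicate 3 (0.0333). When all 12 were fitted, the Kira8 change was -1.58 ± 1.24 (adjusted p = 0.626). The gene Pdzk1 overlaps Cd160 on the other strand and had 13 to 66 counts per library, against 188 to 1487 for Cd160.

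Markers of CD8 T and NK cells also fell with Kira8, as 6 of the receptors did. With Stattic, of those receptors, Btla and Cd200 fell, Tigit rose, and Pdcd1, Havcr2 and Cd160 were not called. The summed level of 10 such markers was 434 to 659 CPM in None, 101 to 125 with Kira8, 244 to 342 with Stattic and 131 to 207 with both. Of the 9 tested, 7 fell with Kira8, 3 fell and 1 rose with Stattic, and 6 fell and 1 rose with both. In the same order 9.59%, 18.9% and 20% of all genes were called lower, and 9.7%, 20.1% and 20.8% higher. The mean level of Cd8a was 104 CPM in None and 16.3 CPM with Kira8, and Ncr1, which encodes an NK cell receptor, was at 0 in every library with an inhibitor and at a mean of 0.0336 CPM in None. The part of these cells in the falls of Cd160, Havcr2, Pdcd1 and Tigit was not tested.

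**Figure D3:**
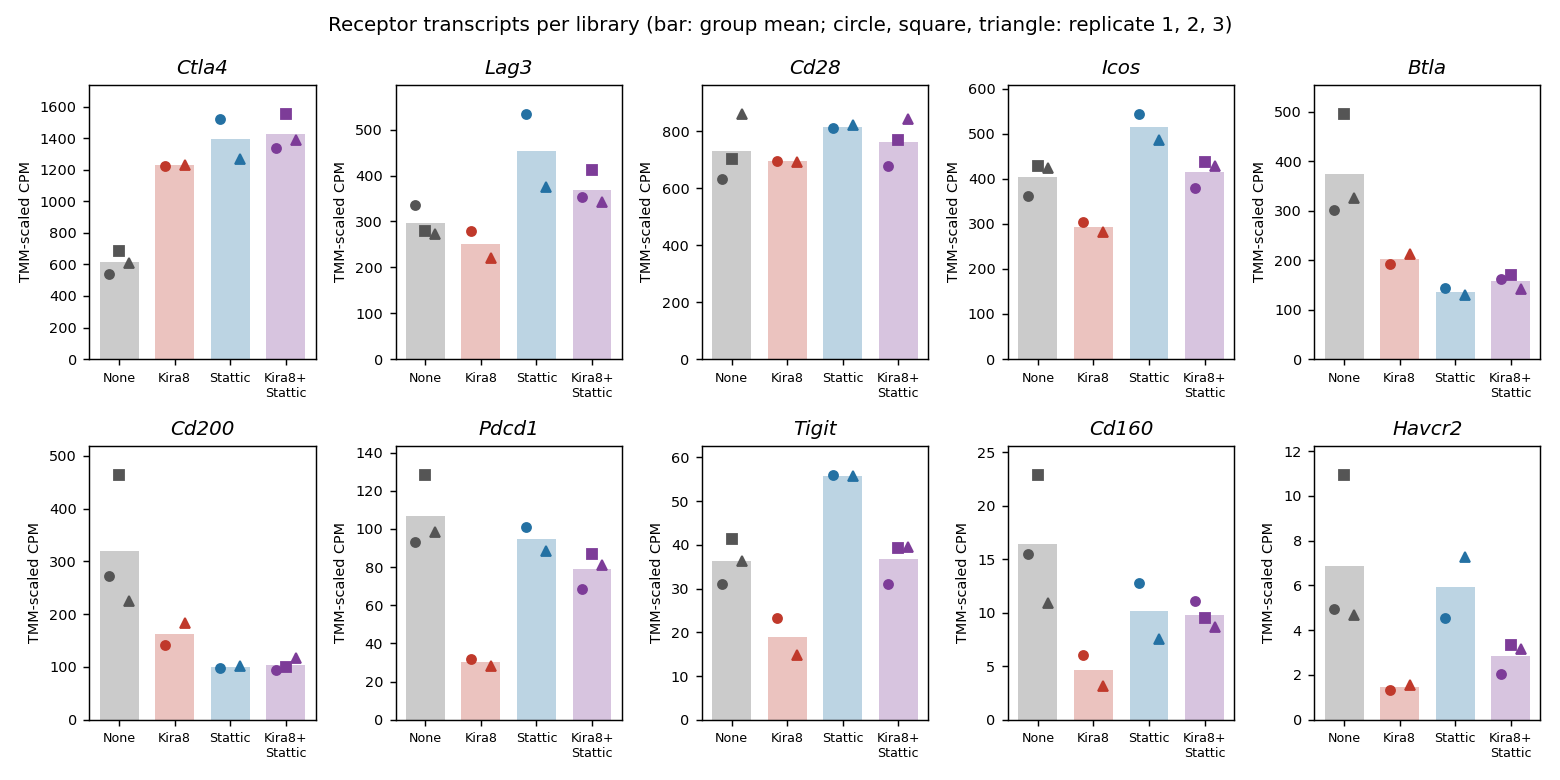
TMM-scaled CPM of each receptor in the 10 libraries, with a panel per gene, bars for group means and points for single libraries by replicate number. Ctla4 is above the None libraries in every library with an inhibitor, Pdcd1 is near 30 CPM in both Kira8 libraries against 68.4 CPM or more elsewhere, and None replicate 2 is the highest library for Btla, Cd200, Pdcd1, Cd160 and Havcr2.

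Whether Kira8 had the same effect in the presence of Stattic was asked by setting the Kira8+Stattic libraries against the Stattic libraries, and by the interaction, here the Kira8 change in Stattic-treated cells less the change in cells without it. Given on top of Stattic, Kira8 left 0 of the 10 receptors called in edgeR, where 0.0141% of all genes were called, 0.00942% higher and 0.00471% lower. The unadjusted edgeR p was under 0.05 for 2 of them, Tigit (-0.60 ± 0.20) and Havcr2 (-1.05 ± 0.40), each with an adjusted p of 1. The groups did not overlap for 4 of the 10, against 18.9% of all genes. DESeq2 and limma voom also called 0. The interaction was called for 3 of 10, 2 higher and 1 lower, against 8.52% of all genes, 4.55% higher and 3.97% lower. For Pdcd1 the Kira8 change was -1.83 ± 0.19 without Stattic and -0.27 ± 0.18 with it, a difference of 1.56 ± 0.26 (adjusted p = 0.00537) that was called without any single library. For Ctla4 the changes were 1.00 ± 0.16 and 0.03 ± 0.17, a difference of -0.97 ± 0.23 (adjusted p = 0.0247). For Btla they were -0.88 ± 0.21 and 0.21 ± 0.21, a difference of 1.10 ± 0.30 (adjusted p = 0.0408). Markers of other cells moved with the interaction: 4 of 10 B cell markers were higher and 0 lower (median 1.71, Pax5 2.54 ± 0.45), and 3 of 9 CD8 T and NK markers were higher and 0 lower (median 1.00, Cd8a 2.28 ± 0.50), against a median of 0.01 over all genes. Their part in these differences was not tested.

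The calls of Ctla4 and Btla were less firm than that of Pdcd1. The Ctla4 interaction was not called without Kira8 replicate 1 (0.112), Kira8 replicate 3 (0.115), Stattic replicate 1 (0.0909), Kira8+Stattic replicate 1 (0.0661) or Kira8+Stattic replicate 3 (0.0576). That of Btla was called only without one or another of the 3 None libraries (lowest adjusted p = 0.0149) and ended without any other single library (0.0587 to 0.167). For Cd160 the difference was 1.77 ± 0.51 (adjusted p = 0.0526). It was called by DESeq2 (0.00678), limma voom (0.0449), RLE size factors (0.0494), without a filter (0.0452), with the filter at 1 CPM (0.0345), without None replicate 3 (0.0314) and without Stattic replicate 1 (0.0447). For Cd200 it was 1.03 ± 0.37 (adjusted p = 0.114), called by DESeq2 (0.0441) and without None replicate 3 (0.0459). Icos, Cd28, Lag3, Tigit and Havcr2 were not called under any of these settings. In all 12 libraries the differences were 2.08 ± 0.69 for Pdcd1, 0.08 ± 1.27 for Ctla4 and 2.04 ± 1.10 for Btla (adjusted p = 0.218, 0.991 and 0.396). The number called was 5 without None replicate 3 and 1 without either Kira8 library or Kira8+Stattic replicate 1 or 3.

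**Figure D4:**
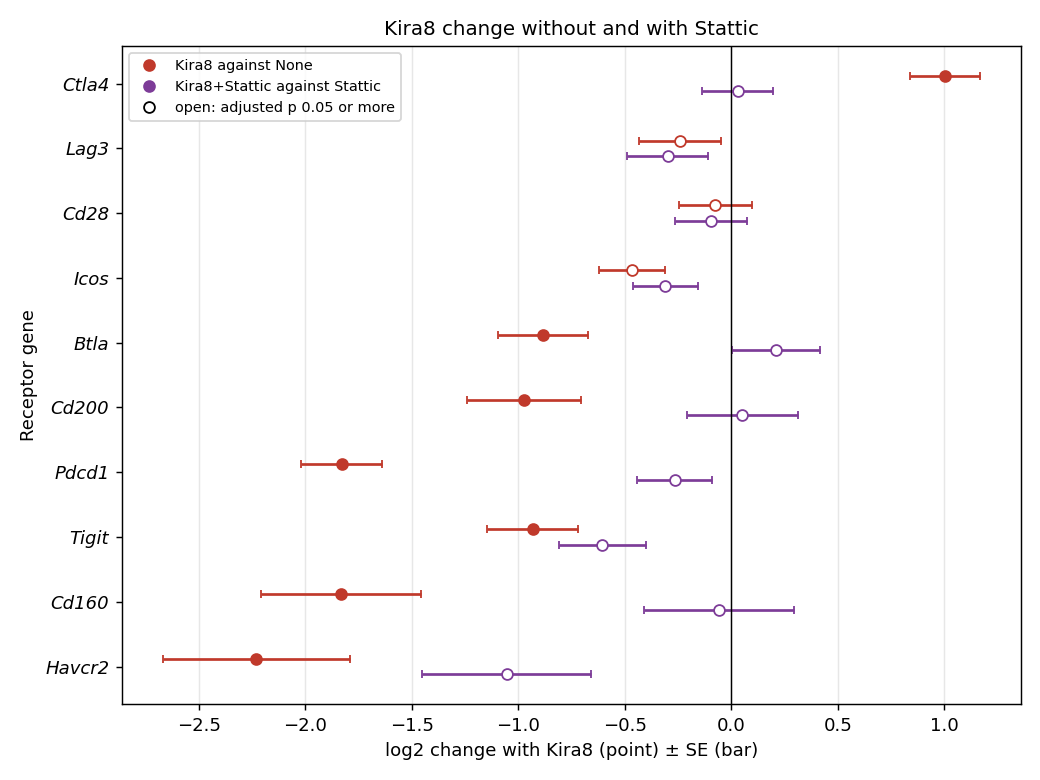
log2 change with Kira8 (point) ± standard error (bar) for each receptor, without Stattic (Kira8 against None) and with it (Kira8+Stattic against Stattic), which share no library. Pdcd1 goes from -1.83 to -0.27, Ctla4 from 1.00 to 0.03 and Btla from -0.88 to 0.21, while Tigit (-0.93 and -0.60) and Lag3 (-0.24 and -0.30) lie closer together.

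Stattic was also compared with Kira8 directly. Of the 10 receptors 6 were higher with Stattic and 0 lower, against 28.7% of all genes, 13.7% higher and 15.1% lower, and the median change was 0.83 against 0.09 over all genes. The CD8 T and NK markers were higher as well, 6 of 9 called and 0 lower, with a median of 1.29 (Prf1 1.98 ± 0.36 and Nkg7 1.34 ± 0.25), while 4 of 10 B cell markers were lower and 0 higher (median -1.10). The part of those cells was not tested. Havcr2 was 4.05-fold higher (2.02 ± 0.46, adjusted p = 0.00666), Pdcd1 3.15-fold (1.66 ± 0.20, adjusted p = 0.000171) and Tigit 2.94-fold (1.56 ± 0.23, adjusted p = 0.000576). Cd160 (1.14 ± 0.39, adjusted p = 0.0473), Lag3 (0.86 ± 0.21, adjusted p = 0.0105) and Icos (0.81 ± 0.17, adjusted p = 0.00409) were also higher. The 4 receptors not called were Ctla4 (0.18 ± 0.18), Cd28 (0.23 ± 0.19), Btla (-0.57 ± 0.23) and Cd200 (-0.70 ± 0.29). The groups of 2 and 2 libraries did not overlap for any of the 10, as for 66.5% of all genes. Without Kira8 replicate 3 the count was 3, with Icos (0.0612), Lag3 (0.124) and Cd160 (0.311) no longer called. The Lag3 call also ended without Stattic replicate 1 (0.107), and the Havcr2 call without Kira8 replicate 1 (0.0591) or Stattic replicate 3 (0.0514). That of Cd160 also ended without Stattic replicate 1 (0.303) or any Kira8+Stattic library (0.0602 to 0.0649). Btla was called without None replicate 1 (0.0417) or None replicate 2 (0.0202), and Cd200 without None replicate 2 (0.0151).

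With Stattic added to Kira8, 5 of the 10 receptors were higher than with Kira8 alone and 0 lower, against 30.7% of all genes, 14.7% higher and 16% lower. The groups did not overlap for 9, against 62.7% of all genes. Of the 9 CD8 T and NK markers 3 were higher and 0 lower, with a median of 0.75 against 0.12 over all genes (Nkg7 1.23 ± 0.23 and Cd8b1 1.07 ± 0.32), and their part in the receptors' rise was not tested. Pdcd1 rose 2.62-fold (1.39 ± 0.19, adjusted p = 0.000251), and Tigit 1.93-fold (0.95 ± 0.21, adjusted p = 0.00556). Cd160 (1.08 ± 0.37, adjusted p = 0.0421), Lag3 (0.56 ± 0.20, adjusted p = 0.0477) and Icos (0.50 ± 0.16, adjusted p = 0.0289) also rose. The Pdcd1 call held without any single library, and the count was 1 without Kira8 replicate 3, 2 without Kira8+Stattic replicate 2 or 3, and 3 without Kira8 replicate 1 or Kira8+Stattic replicate 1. The Tigit call ended without Kira8 replicate 3 (0.0996). Those of Icos, Lag3 and Cd160 each ended without Kira8 replicate 3 (0.227, 0.348 and 0.324) and without Kira8+Stattic replicate 2 (0.0881, 0.141 and 0.0775) or 3 (0.079, 0.0704 and 0.0656). Icos and Lag3 also lost the call without Kira8 replicate 1 (0.128 and 0.0842), Lag3 and Cd160 without Kira8+Stattic replicate 1 (0.0717 and 0.0921), and Lag3 without None replicate 3 (0.0545). Without Kira8 replicate 1 the Cd160 change was 1.63. Havcr2 was called higher without None replicate 2 (0.0478), and Cd200 was called lower without None replicate 2 (0.0119) or None replicate 3 (0.0443).

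The ligands of these receptors, together with the CD200 receptor gene Cd200r1, were followed as a list of 15 genes, of which 14 were tested. For this list and those that follow, the shares of all genes called were 19.3% with Kira8, 39% with Stattic and 40.8% with both, and the medians over all genes were 0, 0.08 and 0.09. With Kira8 4 fell and 0 rose, with a median of -0.30: Pdcd1lg2, which encodes PD-L2 (-1.56 ± 0.38), Icosl, the ICOS ligand (-1.75 ± 0.46), Lgals9, which encodes the TIM-3 ligand galectin-9 (-1.01 ± 0.17), and Hmgb1 (-0.69 ± 0.17). With Stattic 4 fell and 2 rose, near the share of all genes, with a median of -0.06. Cd86 (-2.25 ± 0.35) and Cd80 (-1.76 ± 0.33), the ligands shared by CD28 and CTLA-4, fell, as did Pdcd1lg2 (-1.18 ± 0.37) and Tnfrsf14, which encodes HVEM, the ligand of BTLA and CD160 (-2.07 ± 0.42). Pvr, which encodes the TIGIT ligand, rose (2.12 ± 0.18, adjusted p = 6.93e-06 in edgeR), and Lgals3, which encodes galectin-3, rose as well (0.49 ± 0.16). With both 4 fell and 1 rose, with a median of -0.09, again Cd80 (-1.67 ± 0.28), Cd86 (-1.84 ± 0.30), Tnfrsf14 (-2.26 ± 0.36) and Pdcd1lg2 (-0.87 ± 0.32) lower and Pvr higher (1.87 ± 0.17). Cd274, which encodes PD-L1, was not called in any of the 3 (-0.29 ± 0.26, -0.47 ± 0.26 and -0.33 ± 0.23). CD80 and CD86 are typical of B and myeloid cells, whose part in these values was not tested.

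Of 24 genes of proximal receptor signalling 2 rose and 5 fell with Kira8, 4 rose and 8 fell with Stattic, and 3 rose and 10 fell with both, with medians of -0.22, -0.26 and -0.37. These counts lay not far above the shares of all genes. Ptpn6, which encodes the phosphatase SHP-1 that inhibitory receptors recruit, fell in all 3 (-0.91 ± 0.19, -0.79 ± 0.19 and -0.84 ± 0.17). The scaffold gene Gab2 rose with Kira8 (2.27 ± 0.24), and the kinase gene Prkcq (-0.80 ± 0.17) fell with Stattic. Of 33 transcription factors tied to these receptors 9 rose and 8 fell with Kira8, 11 and 11 with Stattic, and 10 and 10 with both, with medians of 0.15, 0.19 and 0.09. With Kira8 Egr2, which antigen receptor signals induce, changed by -2.20 ± 0.22 and the Th1 factor Tbx21 by -2.05 ± 0.26. With Stattic Ahr (2.61 ± 0.18) and Bcl6, the follicular helper factor (3.24 ± 0.25), rose. Of other follicular helper markers with Stattic, Sh2d1a rose (0.71 ± 0.2) and Il21 fell (-1.51 ± 0.21). Cxcr5 was not called (-0.62 ± 0.25). Nfatc1, a calcium-driven factor, fell with Kira8 (-0.93 ± 0.17), Stattic (-1.29 ± 0.17) and both (-1.40 ± 0.15). Nfatc2 also fell in all 3 (-0.69 ± 0.19, -1.16 ± 0.19 and -1.4 ± 0.17). Nfatc3 rose with Kira8 (0.71 ± 0.17) and was not called with Stattic (0.37 ± 0.17) or both (0.13 ± 0.15).

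Of 21 other inhibitory or costimulatory surface molecules 12 fell and 1 rose with Kira8, 8 fell and 3 rose with Stattic, and 10 fell and 1 rose with both. Their medians were -0.66, -0.40 and -0.68. Cd226, the activating receptor that competes with TIGIT for PVR, fell with Kira8 (-1.73 ± 0.30), Stattic (-2.72 ± 0.31) and both (-2.48 ± 0.26), and Crtam, a nectin-like receptor of cytotoxic T cells, fell as well (-2.56 ± 0.32, -2.12 ± 0.31 and -2.15 ± 0.27). Nt5e, which encodes the ectonucleotidase CD73, rose in all 3 (1.09 ± 0.17, 1.79 ± 0.17 and 1.5 ± 0.16).

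The receptors differed among themselves in profile over the 10 libraries. Likeness was measured as the root mean square difference of log2 levels, each gene centred on its own mean, so that 0 is an identical profile. The closest pairs of receptors were Icos with Cd28 and Icos with Lag3, at 0.21 each, and Btla with Cd200, at 0.23. Receptors other than Havcr2 varied over the 10 libraries by a root mean square of 0.15 (Cd28) to 0.74 (Cd160) log2 units. Icos (0.27) and Cd28 varied little, so a small difference between them need not mean a shared profile. Btla and Cd200 varied more, by 0.6 and 0.73. Among 9649 other genes with a mean of at least 5 CPM, the nearest to Btla was Alcam, which encodes an adhesion molecule (0.10), and the nearest to Ctla4 was Rab9 (0.13). The nearest to Pdcd1 was Cobll1 (0.19) and to Cd200 Nol8 (0.17). For the others the nearest were Dnajc9 to Icos (0.10), Casp2 to Cd28 (0.07), Pdk3 to Lag3 (0.11) and Stk26 to Tigit (0.14), and Havcr2 was not compared because its mean was under 5 CPM. For Cd160 the nearest were Nkg7 (0.21) and Cd8b1 (0.24), both genes of cytotoxic lymphocytes. These are descriptions over 10 libraries that share their groups.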

How the data were processed

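Gene counts came as 1 table of raw counts for 12 libraries, deposited by the authors with no normalization. The genome build was mm10, per the submitters' processing notes. No source used here names the aligner, counter, annotation or strand setting. Symbols came from GENCODE vM21 for 55141 of 55401 Ensembl IDs, with 260 unmatched. In R 4.3.3, edgeR 4.0.16 (TMM scaling, filterByExpr, quasi-likelihood test, 1 coefficient per group) was fitted without Kira8 replicate 2 and Stattic replicate 2, with Benjamini-Hochberg adjustment over 21239 genes. The fit of all 12 libraries, limma 3.58.1 voom, DESeq2 1.42.0, other scalings and filters, a replicate block and leaving out each library were alternatives. Scripts were tested on simulated data. The libraries fitted held 51669791 to 85890966 counts, and precision was also limited by groups of 2 or 3 libraries. All 10 receptors are named, and up to 3 genes with the smallest adjusted p per list and comparison. Other list genes named (such as Cd274, Icosl, Lgals3 and Nfatc1) were chosen after their values were seen. The receptors and lists were chosen with earlier results of these data known.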

Additional observations from a re-analysis of the deposited data

Results flagged for a closer look

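The effect of Kira8 differed between cells without and with Stattic for 3 receptors, by edgeR's interaction test on 10 libraries. For Pdcd1 the change with Stattic minus that without was 1.56 ± 0.26 (adjusted p = 0.00537). For Ctla4 it was -0.97 ± 0.23 (adjusted p = 0.0247), and for Btla 1.10 ± 0.30 (adjusted p = 0.0408). The calls of Ctla4 and Btla did not hold under every choice of library left out, while that of Pdcd1 did. These 10 libraries leave out Kira8 replicate 2 and Stattic replicate 2, which stood apart in mitochondrial share, repeat reads and depth. In all 12 libraries the differences were 2.08 ± 0.69, 0.08 ± 1.27 and 2.04 ± 1.10 in the same order (edgeR adjusted p = 0.218, 0.991 and 0.396). No test for outlying samples was made in groups of 3 libraries or fewer.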

How the results depend on the processing

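The numbers of receptors called were, in the order Kira8, Stattic and both against None, both against Kira8, both against Stattic, Stattic against Kira8 and interaction, 7, 5, 5, 5, 0, 6 and 3. In all 12 libraries edgeR called 0 in each, and DESeq2 2, 0, 0, 0, 0, 2 and 0. Scaling by library size alone called 3 with Stattic and 3 for both against Kira8, where no filter also called 3 and a fit of only the groups compared called 8, and DESeq2 called 5 interactions. Library size alone moved the median over all genes with Stattic from 0.08 to -0.08, and split the calls 1 higher and 2 lower with Stattic, 2 and 1 for both against Kira8 and 5 and 2 for Stattic against Kira8. Leaving out 1 library gave 3 to 8, 3 to 5, 3 to 5, 1 to 7, 0 to 0, 3 to 8 and 1 to 5. All 31 called changes kept their direction in each of those fits that left out a library. Signs turned for changes that were not called, and for the Ctla4 interaction. In all 12 libraries these were Stattic against None for Icos (-0.14) and Cd28 (-0.39), both against Kira8 for Btla (0.03), both against Stattic for Pdcd1 (0.16), Icos (0.16), Cd28 (0.44) and Cd160 (0.52), and the interaction of Ctla4 (0.08), Cd28 (0.98) and Lag3 (0.18). DESeq2 on 12 libraries gave -0.02, -0.30, 0.09, 0.10, 0.41 and 0.51 for the same Icos, Cd28, Pdcd1, Icos, Cd28 and Cd160 changes, and interactions of 0.01 for Ctla4 and 0.88 for Cd28. Quality weights gave 0.05 for Cd160 (both against Stattic) and 0.13 for the Cd28 interaction. Library size alone gave -0.12 for Icos, -0.09 for Cd28 and -0.14 for Tigit (both against None) and 0.01 for the Cd28 interaction. With 1 library left out, values ranged from -0.17 to 0.06 for Cd28 with Kira8 and -0.59 to 0.30 for Havcr2 with Stattic. With both against None they ranged from -0.04 to 0.08 for Icos, -0.03 to 0.20 for Cd28 and -0.08 to 0.12 for Tigit. For both against Stattic they ranged from -0.10 to 0.18 for Ctla4, -0.17 to 0.00 for Cd28, -0.39 to 0.38 for Cd160 and -0.04 to 0.13 for Cd200, and for the interaction from -0.15 to 0.11 for Cd28 and -0.29 to 0.22 for Lag3. The cause was not tested. The labels do not say that a replicate number marks a shared source. Deviations from the group means correlated over 0.1 in 11 of 13 same-numbered pairs (-0.13 to 0.37) and by -0.37 to 0.30 in the others. In groups of 2 libraries these deviations mirror each other, so the pairs are not independent and their number can overstate a shared effect. Such an effect of the number is hinted at in most pairs but not in all, and the libraries were not treated as paired. With the replicate block the counts were 7, 5, 6, 7, 0, 7 and 3, the Btla interaction was 0.79 (adjusted p = 0.0843), and Havcr2 with Stattic (0.12), Ctla4 (-0.05) and Cd200 (-0.08), both against Stattic, turned sign.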

Other observations

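Lag3 took 68.3% of the 10 receptors' counts in Stattic replicate 2, a library of 9275672 counts, against 7.71% to 13.9% in the 10 libraries and 14.8% in Kira8 replicate 2. Scaled by the library's own total, its level there was 485.9 CPM, against 496.2 and 361.9 CPM in Stattic replicates 1 and 3. The other 9 receptors were at 0 to 72.1 CPM there on the same scale. These values were noticed after the data were seen, and no test was made.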
